A study of Saccharomyces cerevisiae with 43 samples.

Results

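The genes of the nuclear pore complex were followed across the salt and peroxide responses of budding yeast. They were 33 genes listed by symbol: the structural nucleoporins, the membrane proteins that anchor the pore, the mRNA-export factors bound to its cytoplasmic side, and the filament proteins of its nuclear basket. All 33 were found by locus tag on both array designs, among 5604 features of the first and 6868 of the second. They were taken by symbol and not by a measured value, though earlier results of these data were known when they were chosen.

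The pore is a channel through the nuclear envelope that carries all exchange of proteins and RNA between nucleus and cytoplasm. An outer scaffold of Y-shaped complexes and an inner ring hold it to the membrane, proteins rich in phenylalanine-glycine (FG) repeats fill its channel, a basket faces the nucleus, and a platform on the cytoplasmic face releases exported mRNA. NUP42 belongs to that platform: it is an FG nucleoporin that binds Gle1, the activator of the mRNA export helicase Dbp5, and in yeast it is not essential in standard medium but is known for its part in mRNA export under heat shock.

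Two-colour spotted arrays were used throughout, 43 in all, and each value was read as the log2 ratio of the sample in channel 2 to a reference culture in channel 1. The first design held 32 arrays of BY4741, a laboratory strain, in 14 groups. BY4741 was grown in log phase in YPD for 3 doublings and put in 0.4 mM H2O2 for 10, 20, 30 or 40 min (naive; 3 arrays each at 10 and 20 min, 2 each at 30 and 40 min), or in 0.7 M NaCl for 15, 30, 45 or 60 min (1, 2, 2 and 1 arrays). Cells given 0.7 M NaCl for 60 min and then 240 min in stress-free medium were measured before peroxide (recovered; 3 arrays) and after 10, 20, 30 or 40 min in 0.4 mM H2O2 (pretreated; array numbers as for naive). A mock medium change followed by the same 240 min gave 3 arrays. Naive, NaCl, recovered and mock samples were set against unstressed cells, whereas pretreated H2O2 samples were set against recovered cells, so that a pretreated ratio starts from the recovered state.

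The second design held 11 arrays, 1 per condition, of BY4741 and of a nup42-delta strain made in BY4741, both grown for at least 7 doublings; it measured naive cells and cells with the same salt treatment and recovery ("memory") after 10 and 20 min in 0.4 mM H2O2, both strains after 30 min in 0.7 M NaCl, and unstressed nup42-delta against unstressed BY4741. BY4741 samples there had unstressed BY4741 as reference, and both naive and memory nup42-delta H2O2 samples had recovered nup42-delta. The labels for the nup42-delta NaCl array name recovered BY4741 as its reference in the channel and speak elsewhere of basal nup42-delta. The labels do not say whether arrays of a group came from separate cultures, so p-values measure the spread between arrays, and no dyes were swapped. Between 4446 and 5575 features carried a value on an array of the first design and between 6500 and 6809 on one of the second; 33 of the 1056 pore values possible on the first design were missing, and none on the second. The replicate 3 arrays of naive and pretreated 10 and 20 min carry array codes of another series than the other 28, and 3 of these 4 had the fewest features; the pore values that stand farthest apart below come from them.

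NUP42 itself marked the deletion. In unstressed nup42-delta against BY4741 its log2 ratio was -5.36, the lowest of 6741 features, and the next lowest feature was at -3.03. On the nup42-delta NaCl array it was at -4.75, the fourth lowest of 6699 features, which has the sign of a BY4741 reference rather than of nup42-delta. On the 5 BY4741 arrays of the second design it lay between -0.29 and 0.29. On the 4 arrays with nup42-delta in both channels, where no NUP42 transcript is expected from either side, it read 0.83 and 0.17 in naive and 1.10 and 1.23 in memory cells at 10 and 20 min. Those 4 values are all above 0, and no test could be made with 1 array per condition.

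The genes beside NUP42 on its chromosome were examined on the array of unstressed nup42-delta. On the one side SLY1, which acts in membrane fusion between the endoplasmic reticulum and the Golgi, was at -0.17, RVB1, an ATPase of chromatin remodelling complexes, at -0.08, and HST4, a histone deacetylase, at 0.04. On the other side MSS116, a mitochondrial RNA helicase, was at -0.03 and REF2, an mRNA 3′-end processing factor, at -0.09, while the short open reading frame YDR194W-A was at -1.65. YDR194W-A was also at -2.20 in BY4741 after 10 min of H2O2 and had no value on 3 of the 11 arrays. The other 5 neighbours stood within 0.17 of 0.

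In BY4741 on the first design NUP42 did not change past the threshold in any comparison. A gene was called where limma's moderated test, fitted over all 32 arrays, gave a Benjamini-Hochberg adjusted p under 0.05 over all features tested, and a gene was tested where each group had at least 2 arrays with a value. NUP42 was at -0.26, -0.23 and 2.35 after 10 min of naive H2O2, at -0.55, -0.14 and 0.35 after 20 min, at -0.87 and -0.30 after 30 min, and at -0.81 and 0.43 after 40 min. The 2.35 came from the replicate 3 array, with the other replicates of that time on the opposite side of 0. In pretreated cells its values lay between -0.69 and -0.04 on all 9 arrays that measured it. The range was -0.30 to 0.60 on the 3 recovered arrays and -0.12 to 0.15 on the 3 mock arrays. Under salt it had a value on only 4 of 6 arrays, from -0.43 to 0.22, and was not tested.

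**Figure D1:**
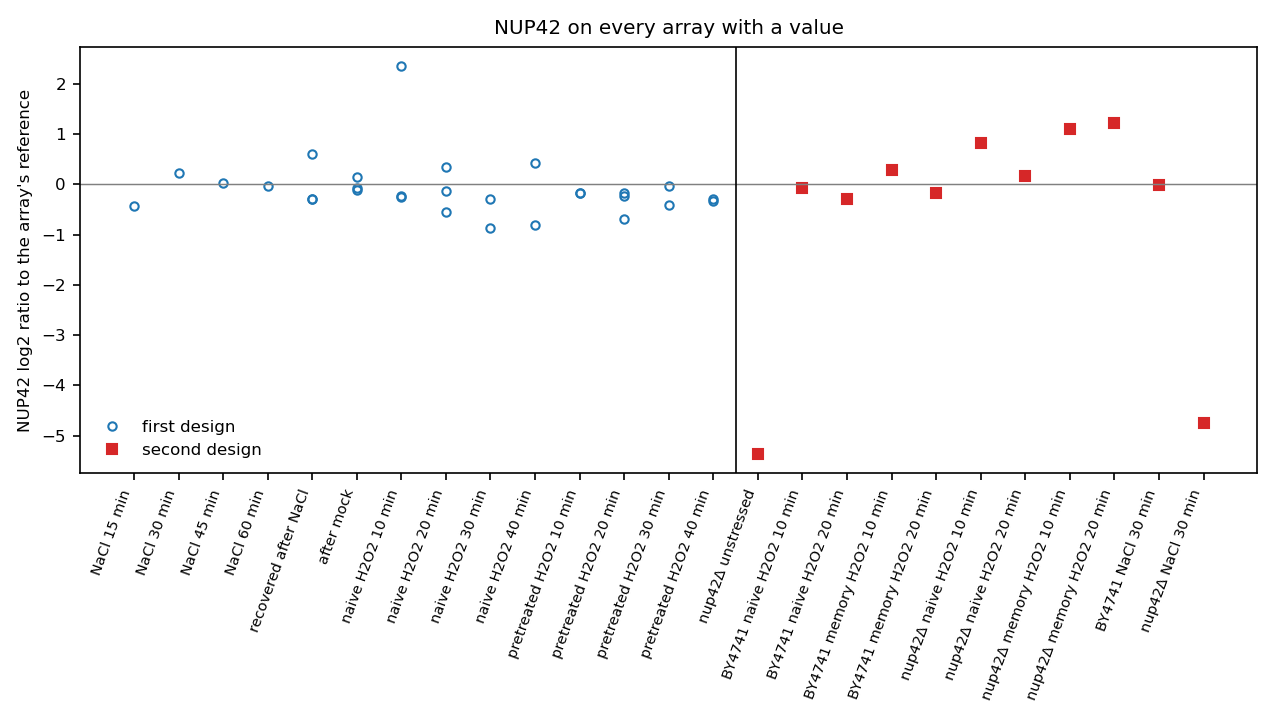
NUP42 log2 ratio (vertical axis) on every array that measured it, by group (horizontal axis); open circles are arrays of the first design and filled squares the second. The ratio is -5.36 in unstressed nup42-delta and -4.75 in nup42-delta under NaCl, and it lies between -0.87 and 2.35 elsewhere on the plot.

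In peroxide the scaffold genes NUP120 and NUP145 and the inner-ring genes NUP170 and NUP188 were lower at all 4 times in naive cells, and POM33, a gene of the membrane ring, was higher from 20 min on. In naive cells 7 of 33 pore genes were called after 10 min, all lower, where 33.7% of all features were called and 18.5% were called lower, so that the share of pore genes called lower was near that of all features. After 20 min 2 were higher and 15 lower of 33 (54.6% of features called, 25.4% higher and 29.2% lower). After 30 min 2 were higher and 15 lower of 31 tested (55.0% called, 25.7% higher and 29.3% lower), and after 40 min 3 were higher and 16 lower of 33 (61.2% called, 27.9% higher and 33.4% lower). The median log2 ratio of the pore genes tested went from -0.21 at 10 min to -0.33, -0.38 and -0.41 at the later times, beside -0.04, -0.07, -0.06 and -0.08 for all features. These are bulk cultures, in which a smaller share of cells with a transcript and less of it per cell cannot be told apart. Without 1 array the count ranged from 4 to 5 at 10 min and 11 to 19 at 20 min. It was lower without either array at 30 and at 40 min. The share of all features called in those runs is not given.

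The Y complex, the outer scaffold, held 2 genes, NUP120 and NUP145, that were lower in all 8 peroxide comparisons, 4 naive and 4 pretreated. NUP120 was at -0.44, -0.91 and -1.66 after 10 min of naive H2O2 and at -0.77, -1.23 and -1.23 after 20 min, a mean of -1.08 ± 0.19 (limma SE, n = 3 arrays; adjusted p = 7.1e-05), or 2.11-fold lower. Its values were -0.97 and -0.91 at 30 min and -0.85 and -1.01 at 40 min. All 10 naive arrays lay below the 6 recovered and mock arrays, which ran from -0.25 to 0.16. The NUP120 call was lost at 10 min with only the arrays of the groups compared (adjusted p = 0.055) and at 30 and 40 min with the spread of every array made equal. NUP145, whose product is cut into an FG nucleoporin and a scaffold subunit, fell by 1.06 ± 0.12 at 20 min (limma adjusted p = 1.1e-07) and reached -1.44 and -1.46 on the 2 arrays at 30 min. NUP133, another scaffold subunit, was not called at 10 min (-0.28) and was lower from 20 min on, from -0.52 to -1.01 at 40 min. The small subunits moved less: SEH1 was higher at 20 min, by 0.28 ± 0.10 (limma adjusted p = 0.027; lost without replicate 1 or 2, with an adjusted p of up to 0.168), and SEC13, which also coats vesicles leaving the endoplasmic reticulum, was not called in naive cells.

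The inner ring links the scaffold to the membrane and the channel. NUP170 had the lowest mean of the pore genes at 20 and 40 min. It was at -0.70, -1.14 and -0.63 after 10 min, -1.42, -1.43 and -1.32 after 20 min, -1.45 and -1.75 after 30 min, and -1.43 and -1.61 after 40 min. The mean at 40 min was -1.52 ± 0.32 (2.87-fold lower, limma adjusted p = 0.00032). The recovered and mock arrays ran from -0.59 to 0.45 and did not overlap the naive arrays. The NUP170 call at 10 min was lost without replicate 1 (limma adjusted p = 0.054) or replicate 2 (adjusted p = 0.15), and that at 40 min with the spread of every array made equal. NUP188 was not called at 10 min without replicate 2 (adjusted p = 0.081) or replicate 3 (adjusted p = 0.11). NUP188 was at -0.98, -1.44 and -1.08 at 20 min (-1.17 ± 0.16, limma adjusted p = 2.1e-06), and NUP192, like it one of the largest pore proteins, was at -0.84 ± 0.14 (limma adjusted p = 2.2e-05). NIC96, which docks the channel nucleoporins, was called in no peroxide comparison, with means from -0.22 to 0.09.

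The 4 pairs of paralogs in the pore did not move alike in every case. NUP157, the paralog of NUP170, was at -1.69, -0.60 and -0.43 at 20 min, a mean of -0.91 ± 0.19 (limma adjusted p = 0.0003) that was -0.52 without replicate 1. NUP53 and ASM4, membrane-binding FG nucleoporins of the inner ring, ended on opposite sides of 0 at 40 min. ASM4 was at 0.47 and 0.54, a mean of 0.51 ± 0.14 (limma adjusted p = 0.0039; lost without replicate 2, adjusted p = 0.068, and with spread equalised), and NUP53 was at -0.39 and -0.53, a mean of -0.46 ± 0.19 (limma adjusted p = 0.044; lost without either array). Among the channel FG nucleoporins NUP100 was lower at 20, 30 and 40 min (-0.65, -0.90 and -0.83; lost without replicate 1 at 20 min, adjusted p = 0.050, and at 40 min, adjusted p = 0.051, and with spread equalised at all 3 times), whereas NUP116 was called in no peroxide comparison, with means from -0.36 to 0.20. The basket filament genes MLP1 and MLP2 were at -0.62 and -0.49 at 30 min, and the test was passed by MLP1 (adjusted p = 0.020; lost without either array) and not by MLP2 (adjusted p = 0.060). No test was made of the difference between paralogs.

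On the cytoplasmic face NUP159, the docking site of Dbp5, was the gene most often lower: it was called in all 7 peroxide comparisons that tested it, and its 3 values at 20 min were -1.01, -0.75 and -0.68. GLE1, which activates Dbp5 together with its inositol cofactor, was called in none; its values at 20 min were -0.26, -0.07 and 1.07, the last on replicate 3. GLE2, an mRNA export factor that binds NUP116, was lower at 20 and 30 min (-0.41 and -0.45). Of the central channel proteins NUP57 was lower at 20 min, at -0.76 and -0.35 (limma adjusted p = 0.043, n = 2 arrays), and NUP49 was not called in naive cells.

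In the membrane ring NDC1 and POM152 fell and POM33 rose. NDC1, a transmembrane protein shared by the pore and the spindle pole body, was at -0.77, -0.68 and -0.69 after 10 min and at -1.64 and -1.58 after 30 min, its mean of -1.61 ± 0.17 being 3.05-fold lower (limma adjusted p = 7.9e-08). POM152, with a large domain in the space between the nuclear membranes, was not called at 10 min and was at -0.99, -1.11 and -1.20 at 20, 30 and 40 min. POM34 was lower at 30 and 40 min by less (-0.38 and -0.41). POM33, a transmembrane protein that contributes to pore distribution and biogenesis, was higher. Its values were 0.29, 0.32 and 0.10 after 10 min, 0.79, 0.65 and 0.67 after 20 min, 1.49 and 1.29 after 30 min, and 1.53 and 1.61 after 40 min, with no overlap between times. The change at 40 min was 1.57 ± 0.15, or 2.97-fold (limma adjusted p = 1e-08), and at 10 min (0.24) it was not called.

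**Figure D2:**
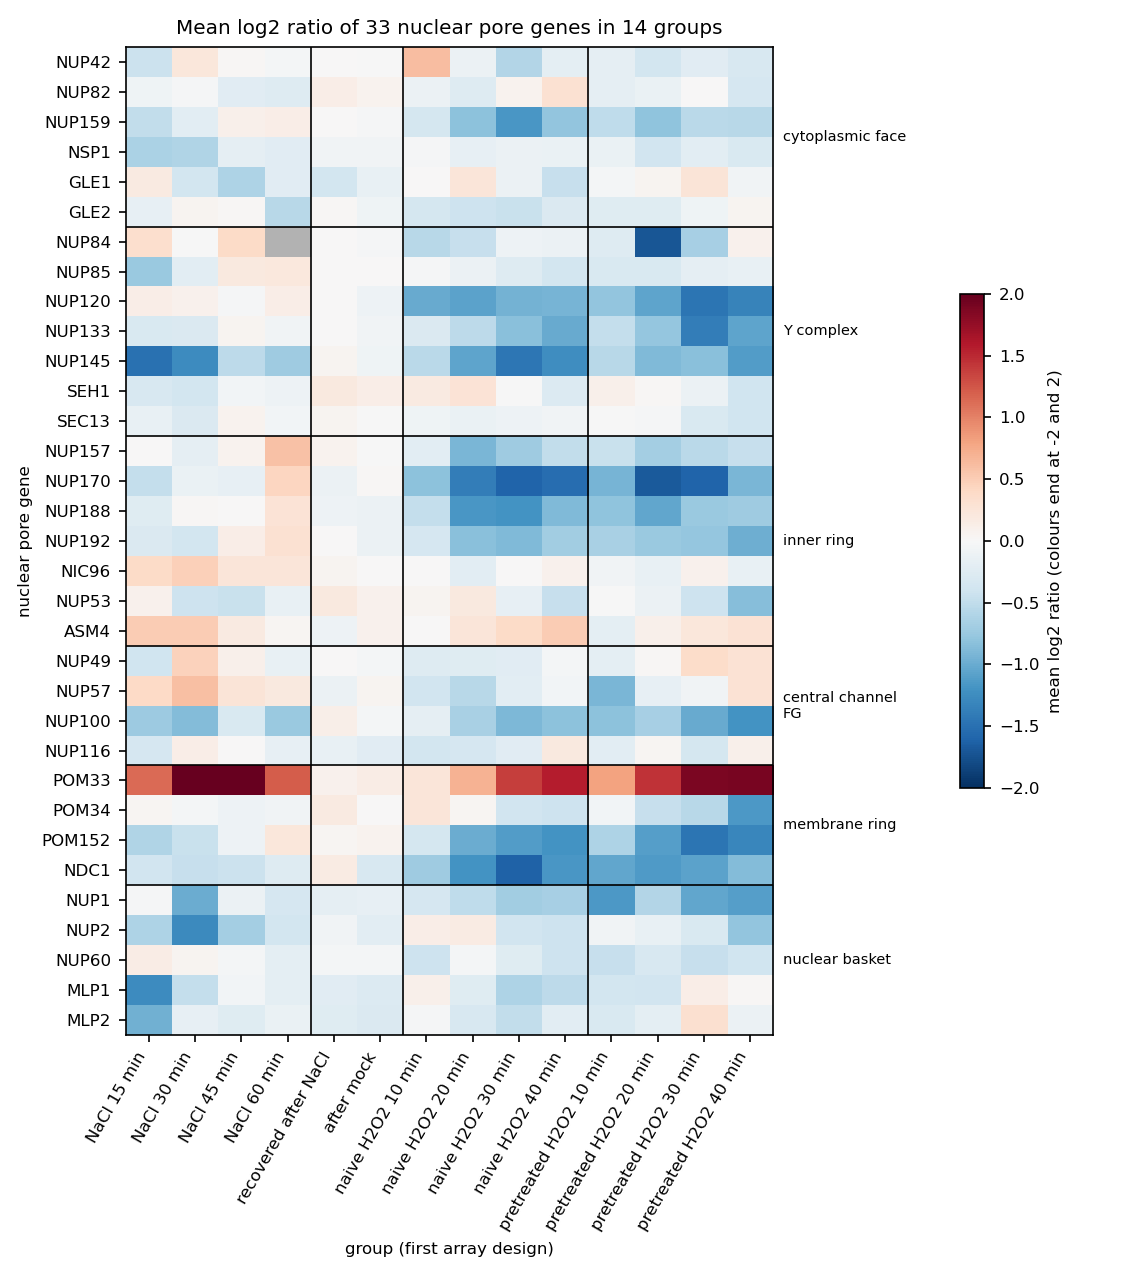
Mean log2 ratio of each of the 33 pore genes (rows, ordered by place in the pore) in the 14 groups of the first design (columns); blue is lower and red higher than the reference, colours end at -2 and 2, and grey marks no value. POM33 is red under salt and peroxide (2.46 at 30 min of NaCl), and NUP120, NUP145, NUP170 and NUP188 are blue in all 8 peroxide columns.

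In pretreated cells, whose reference was the recovered state, the genes that fell included NUP120 of the scaffold, NDC1 of the membrane ring and NUP1 of the basket. After 10 min 1 was higher and 13 lower of 32 tested (40.2% of features called, 16.6% higher and 23.7% lower), and after 20 min 1 was higher and 16 lower of 33 (60.6% called, 26.7% higher and 33.9% lower). After 30 min 2 were higher and 14 lower of 33 (62.3% called, 29.7% higher and 32.6% lower), and after 40 min 1 was higher and 16 lower of 30 (63.1% called, 29.7% higher and 33.4% lower). NUP1, a basket protein that binds importins, was lowest at 10 min, at -1.61, -0.49 and -1.35 (-1.15 ± 0.16, limma adjusted p = 2.2e-05). At 40 min NUP120 was lowest (-1.42 and -1.24), followed by POM152 (-1.31), NUP100 (-1.19) and POM34 (-1.15). NUP84, a Y-complex subunit, had the lowest mean at 20 min, -1.71 ± 0.53 (adjusted p = 0.0091), from values of 0.13, -0.52 and -4.73. Without the replicate 3 array that mean was -0.20 (adjusted p = 0.53). NUP49 was higher at 30 min, at 0.28 and 0.44 (adjusted p = 0.031, lost without either array).

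Over the 8 peroxide comparisons NUP120, NUP145, NUP170 and NUP188 were lower in all 8, 21 other pore genes were lower in 1 to 7, and 28 were never called higher. NUP42, GLE1, NIC96, NUP116 and MLP2 were called in none. Of the 27 pore genes tested in all 8, 14.8% were lower in all 8, 59.3% in 1 to 7, 81.5% were never higher and 14.8% were called in none. Of the 4098 features tested in all 8 these shares were 6.39%, 46.8%, 56.3% and 10.3%. In pretreated cells the NUP170 call was lost at 10 min without replicate 3 (adjusted p = 0.096) and at 40 min without replicate 2 (adjusted p = 0.46), with spread equalised and with only the arrays compared (adjusted p = 0.058), and at 30 min with spread equalised. The genes lower in 7 comparisons were NUP159, NUP133, NUP192, NUP100, POM152, NDC1 and NUP1.

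The pore genes that were lower were mostly the long ones, and long genes were lower across the whole array. At 20 min of naive H2O2, 10 of the 13 pore genes of at least 3000 bases (gene span in RefSeq's R64 table) were called lower, beside 69.4% of the 513 features that long. Among shorter genes 5 of 20 pore genes were lower, beside 25.3% of features. At 10 min the counts were 5 of 13 and 2 of 20, beside 43.9% and 15.8%, and in pretreated cells at 40 min 9 of 13 and 7 of 17, beside 37.1% and 32.9%. Across the 33 pore genes the Spearman correlation of length with the log2 ratio at 20 min was -0.68, and across 5273 features it was -0.46; genes are not independent points, as they share the arrays. Under 30 min of NaCl it was -0.28 across pore genes and 0.07 across features. The part of length in the pore result was not tested.

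Few pore genes were called for a difference between pretreated and naive cells, and the shares called of all features were small too. The difference between pretreated and naive ratios was called for none of 32 pore genes at 10 min by limma (3 at an unadjusted p under 0.05), where 0.229% of features were called. It was called for 1 of 33 at 20 min, higher (3.76% of features called, 3.06% higher), for none of 31 at 30 min (7 at an unadjusted p under 0.05; 8.93% of features called, 2.77% higher and 6.16% lower) and for 2 of 30 at 40 min, both lower (11.9% of features called, 9.39% lower). POM33 was the one at 20 min: the pretreated arrays read 1.37, 1.25 and 1.70 and the naive arrays 0.79, 0.65 and 0.67, without overlap. The difference was 0.74 ± 0.17 (1.67-fold, limma adjusted p = 0.021). It missed the threshold without naive replicate 1 (0.78, adjusted p = 0.067), without naive replicate 2 (0.71, adjusted p = 0.090) and without pretreated replicate 3 (0.61, adjusted p = 0.16). At 10 min the POM33 arrays did not overlap either (0.67, 0.67 and 1.08 against 0.29, 0.32 and 0.10). At 40 min POM34 was at -1.41 and -0.88 in pretreated and -0.37 and -0.45 in naive cells, a difference of -0.74 ± 0.19 (adjusted p = 0.015), and NUP82, which anchors the cytoplasmic platform, was at -0.16 and -0.52 against 0.10 and 0.52 (-0.65 ± 0.19, adjusted p = 0.023). The POM34 call was lost without naive replicate 1 (-0.70), naive replicate 2 (-0.78) or pretreated replicate 1 (-0.47), and the NUP82 call without naive replicate 2 (-0.44) or pretreated replicate 2 (-0.47).

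Salt raised POM33 and lowered NUP2 and NUP145 at 30 min. After 30 min in 0.7 M NaCl 5 pore genes were higher and 5 lower of 29 tested (52.3% of features called, 24.6% higher and 27.6% lower), and after 45 min 1 was higher and 3 lower of 31 (37.8% called, 18.6% higher and 19.2% lower). At both times the count was lower without either array, and the share of all features called in those runs is not given. POM33 was again the highest: it read 1.14 on the array at 15 min, 2.52 and 2.40 at 30 min, 2.63 and 2.11 at 45 min and 1.21 on the array at 60 min. Its change at 30 min was 2.46 ± 0.15, or 5.5-fold (limma adjusted p = 1.8e-11). NUP2, a mobile basket protein that works with importins, was at -1.32 and -1.22 at 30 min (-1.27 ± 0.16, adjusted p = 6.3e-07) and at -0.86 and -0.49 at 45 min. NUP145 was at -1.49 on the array at 15 min, -1.28 and -1.23 at 30 min and -0.45 and -0.59 at 45 min. Both genes were nearer 0 at 45 than at 30 min on every array. On the array at 60 min NUP2 was at -0.37 and NUP145 at -0.71, the latter below both of its arrays at 45 min. These changes with time were not tested.

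Further genes passed at 30 min of salt with smaller values. NSP1, an FG nucleoporin of both the channel and the cytoplasmic face, was at -0.60 on both arrays, SEH1 at -0.49 and -0.25, and NDC1 at -0.18 and -0.75. The higher genes were NUP57 (0.38 and 0.83), ASM4 (0.70 and 0.31), NIC96 (0.51 and 0.44) and NUP49 (0.56 and 0.35). NUP57, NUP49 and NIC96 encode proteins that bind each other in the pore, with NSP1 as their partner. Calls for SEH1, NUP49 and ASM4 were lost without replicate 1, that for NDC1 without replicate 2, and those for NIC96 and NUP57 without either. NUP100 and NUP1, at -0.87 and -0.99 on replicate 1, had no value on replicate 2 and were not tested. On the single array at 15 min MLP1 was at -1.26 and MLP2 at -0.96, and at 30 min MLP1 was at -0.58 and -0.36 and MLP2 at -0.19 and -0.15, neither of which passed.

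**Figure D3:**
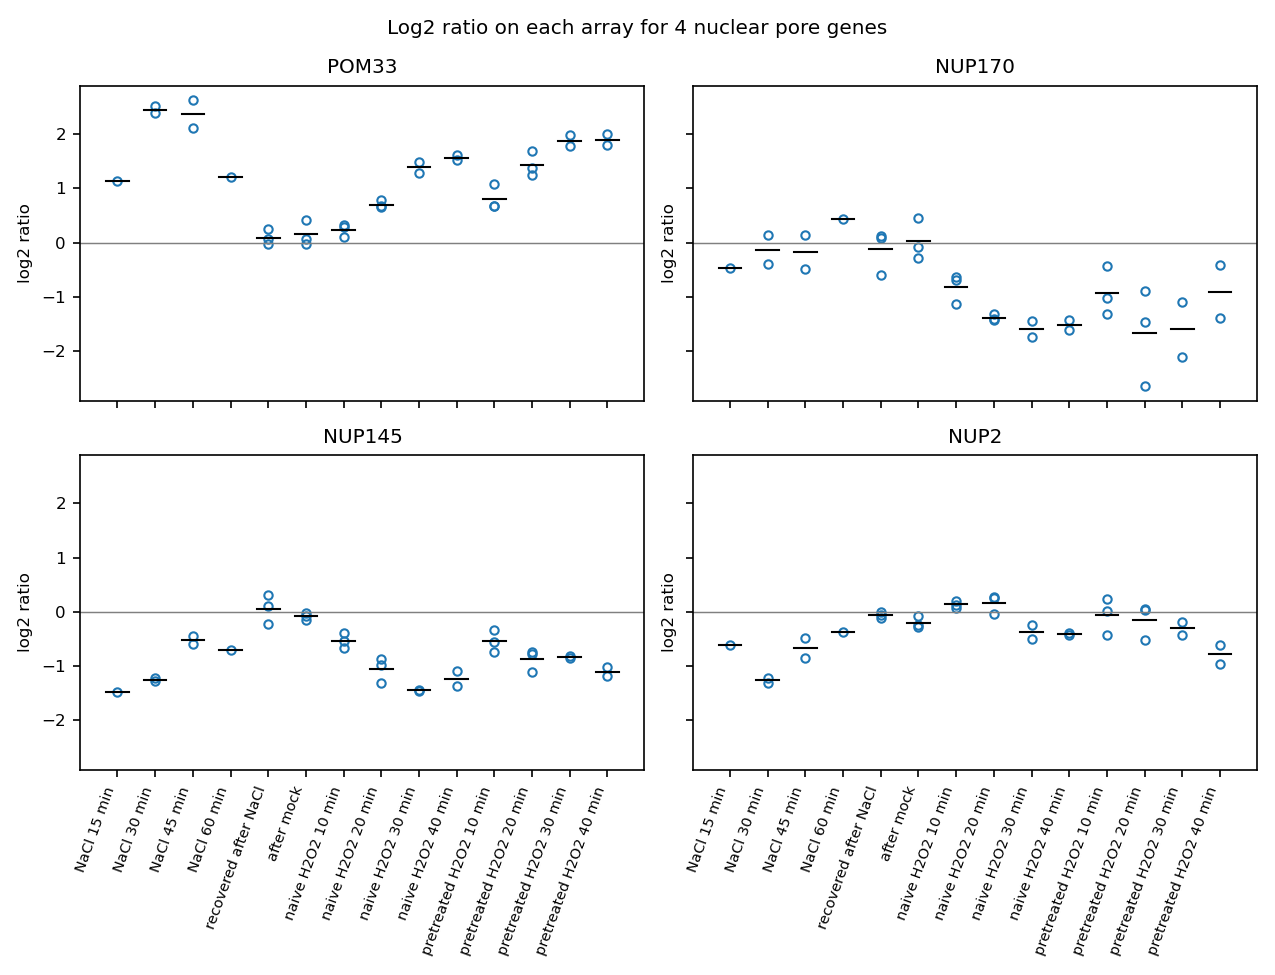
Log2 ratio on each array (circles) and group mean (bar) for POM33, NUP170, NUP145 and NUP2 in the 14 groups of the first design. POM33 is above 1 on every salt array, NUP170 lies between -2.66 and -0.42 on the peroxide arrays, and NUP2 is lowest at 30 min of salt (-1.32 and -1.22).

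Salt and peroxide were compared directly at 30 min, both against unstressed cells. Of 27 pore genes tested, 8 were higher and 1 lower in salt than in peroxide (44.6% of features called, 20.0% higher and 24.6% lower). NUP170 differed by 1.47 ± 0.46 (limma adjusted p = 0.012), NUP188 by 1.21 ± 0.27 (adjusted p = 0.0011), NDC1 by 1.15 ± 0.23, NUP120 by 1.03 ± 0.33 and NUP133 by 0.54 ± 0.20. For these 5 genes the peroxide arrays were at or below -0.75 and the salt arrays between -0.75 and 0.32, with no overlap within a gene. POM33 was higher in salt by 1.07 ± 0.21 (adjusted p = 0.00033), and NUP57 and NUP49 by 0.82 and 0.69. NUP2 was the gene lower in salt, by -0.89 ± 0.22 (adjusted p = 0.0028). NUP145 was at -1.26 in salt and -1.45 in peroxide and did not pass. The NUP170 call was lost without NaCl replicate 1 (1.20) or H2O2 replicate 2 (1.32), the NUP120 call without NaCl replicate 1 (0.83) or either H2O2 array, and the NUP57 call without any 1 of the 4 arrays (0.60 to 1.05). With the spread of every array made equal the calls for NUP170, NUP188, NUP120 and NUP57 were lost. The count was lower without any 1 of the 4 arrays, and the share of all features called in those runs is not given.

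**Figure D4:**
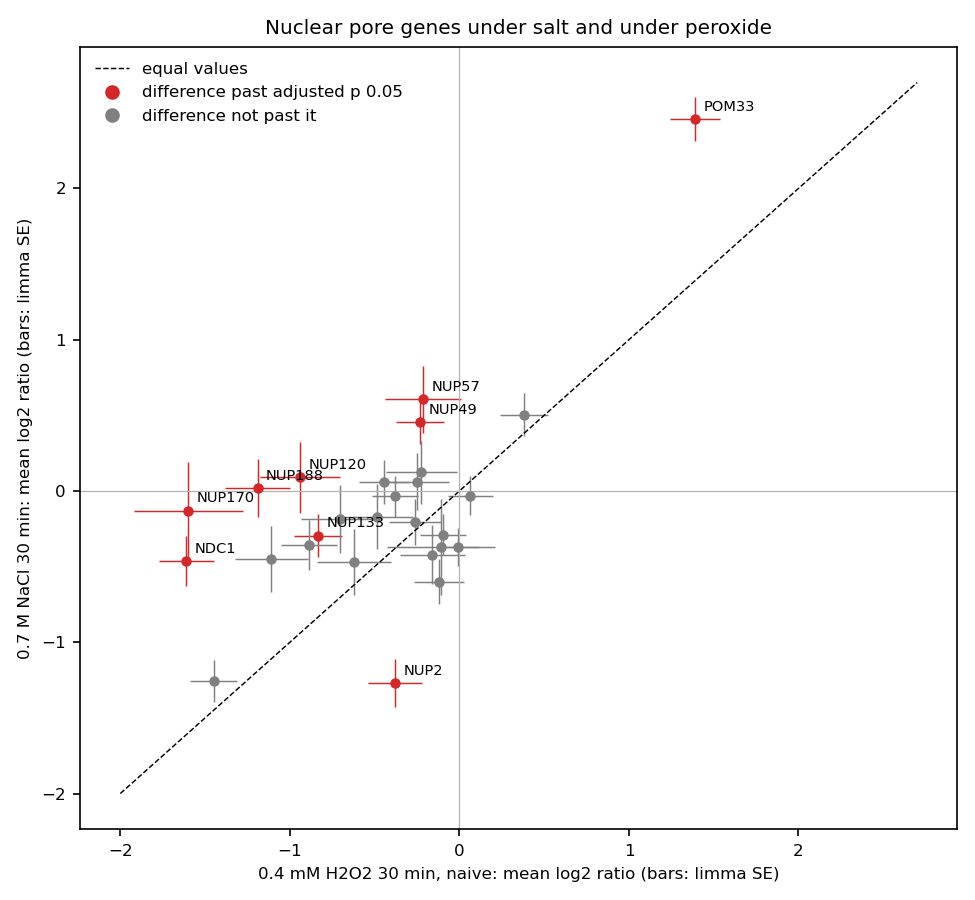
Mean log2 ratio of the 27 pore genes tested at 30 min in naive 0.4 mM H2O2 (horizontal axis) and in 0.7 M NaCl (vertical axis), with limma standard errors as bars and the line of equal values dashed. The 9 genes in red differed between the stresses; NUP170, NUP188, NDC1, NUP120 and NUP133 lie above the line at the left and NUP2 below it.

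After salt and 240 min of recovery no pore gene stood past the threshold. None of 33 was called in recovered cells, after the mock treatment, or between them by limma, where 0.0% of features were called in each; at an unadjusted p under 0.05 there were 0, 1 and 1 pore genes, and 473, 205 and 44 features. With the spread of every array made equal, 5, 7 and 1 pore genes were called, where 22.5%, 17.6% and 0.498% of features were called. POM33, the gene most raised by salt, read 0.06, 0.25 and -0.03 in recovered cells and -0.02, 0.41 and 0.07 after mock. NUP145 read -0.23, 0.30 and 0.10 in recovered cells.

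The genes that work with the pore were followed as 2 lists. Of 23 transport receptors (karyopherins) and genes of the Ran cycle, which gives transport its direction, 3 were higher and 14 lower after 20 min of naive H2O2, where 25.4% of all features were higher and 29.2% lower. The importin-beta gene KAP95 was at -1.18 ± 0.16, the exportin gene CSE1 at -1.19 ± 0.31 and the tRNA exportin gene LOS1 at -1.41 ± 0.30, whereas the Ran-binding protein gene YRB1 (0.87 ± 0.16), YRB2 (0.73 ± 0.21) and the Ran gene GSP1 (0.59 ± 0.14) were higher (limma adjusted p between 2.2e-06 and 0.0059 for these 6). After 30 min of NaCl 2 of 21 tested were higher and 6 lower (24.6% and 27.6% of features). GSP1 was then at -1.59 ± 0.17 (limma adjusted p = 6.8e-08), SRM1, which loads Ran with GTP, at -1.38 ± 0.20 and KAP123, an importer of ribosomal proteins, at -1.72 ± 0.33, while the importin gene MTR10 was at 0.80 ± 0.28 and the exportin gene CRM1 at 0.52 ± 0.14. GSP1 differed between salt and peroxide at 30 min by -2.08 ± 0.24 (adjusted p = 9.4e-07).

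The second list held 21 genes of pore assembly or linked to the pore, of which HEH2 and SUS1 were not matched on the first design. After 20 min of naive H2O2 8 were higher and 3 lower of 19 (25.4% and 29.2% of features). BRL1, a membrane protein of pore biogenesis, was at -2.0 ± 0.23, its partner BRR6 at -0.93 ± 0.18 and SAC3, the scaffold of the basket-bound mRNA export complex, at -1.29 ± 0.13. CDC31, the centrin that binds SAC3, was at 1.65 ± 0.16, GFD1, which is linked to GLE1 and DBP5, at 1.55 ± 0.20, and PER33, the paralog of POM33, at 0.96 ± 0.14 (limma adjusted p at most 0.0002 for these 6). After 30 min of NaCl 2 were higher and 3 lower of 18 (24.6% and 27.6% of features). PER33 differed between salt and peroxide at 30 min by -1.63 ± 0.23 (limma adjusted p = 1.5e-05), the opposite sign to POM33 in the same comparison. BRL1 was higher in salt than in peroxide, by 2.67 ± 0.39 (adjusted p = 2.2e-05).

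Loss of NUP42 left the other pore transcripts within 0.51 of the wild type on the 1 array that compared unstressed strains. Of the other 32 pore genes 25 were below 0 and 7 above it, with a median of -0.16, where 50.0% of all features lay below 0. The values ran from -0.51 (NUP1), -0.49 (NUP100) and -0.47 (NUP2) to 0.14 (NUP82), and none reached 1 in either direction, where 3.10% of features did. GLE1, which binds Nup42, was at -0.22, and NUP159 and GLE2 were at -0.08 and -0.29. The SD of the 32 pore values was 0.17 and that of all features 0.41. With 1 array no test was made, and a shift of all pore values cannot be told apart from array error. As markers of the mating types, STE2 was at -0.17 and STE3 at 0.25.

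Under salt the strains gave close values on 1 array each. In BY4741 POM33 was at 2.54, and 4 of the others were at or below -1 (36.6% of features were at or past 1 in either direction); in nup42-delta POM33 was at 2.20, and 4 were at or below -1 (34.0% of features). NUP2 was at -1.61 and -1.54 in the respective strains, NUP100 at -1.52 and -1.68, NUP145 at -1.39 and -1.53 and NSP1 at -1.19 and -1.24. NUP1 lay just above that line, at -1.0 and -0.92. Of the other genes called higher at 30 min on the first design, NUP57 and NUP49 were below 0 here. NUP57 was at -0.40 and -0.32 and NUP49 at -0.19 and -0.24, whereas ASM4 (0.21 and 0.41) and NIC96 (0.11 and 0.22) were above 0. The difference between the arrays ran from -0.35 (POM33) to 0.20 (ASM4) over the 32 pore genes other than NUP42, with a median size of 0.07, beside 0.17 over 6469 features. The arrays had different references by their labels, unstressed BY4741 and recovered BY4741.

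On the second design most pore values under peroxide lay within 1 of 0. The median over the 33 genes in naive BY4741 was -0.04 at 10 min and -0.26 at 20 min, beside -0.21 and -0.33 on the first design; the designs were not tested against each other. In naive BY4741 none of the 32 pore genes other than NUP42 was at or past 1 at 10 min or at 20 min (5.66% and 12.3% of features were). In naive nup42-delta none was at 10 min (5.69% of features), and NDC1 alone, at -1.03, was at 20 min (15.6% of features). NDC1 was the lowest pore gene in naive BY4741 too, at -0.94 at 20 min, and POM33 the highest, at 0.48, with 0.83 in nup42-delta. At 20 min NUP170 was at -0.62 and -0.79 in the respective strains, and NUP120 at -0.44 and -0.47. The naive arrays of the strains had different references by their labels, unstressed BY4741 and recovered nup42-delta. In naive BY4741 at 10 min NUP120, NUP145, NUP170 and NUP188 were at -0.05, -0.08, -0.14 and 0.13. On the first design they were called lower at that time. The designs shared sign for 19 of 33 pore genes at 10 min of naive H2O2 in BY4741 (61.8% of features), 29 of 33 at 20 min (78.7%) and 25 of 33 at 30 min of NaCl (86.7%).

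Memory cells of the strains stood apart from their naive arrays by different amounts. In memory BY4741 at 20 min POM33 was at 1.44, and NUP100 (-1.24), NUP1 (-1.20) and NUP170 (-1.05) were at or below -1 (31.9% of features were at or past 1). At 10 min none of the 32 was at or past 1 in memory BY4741 or memory nup42-delta (12.6% and 7.18% of features), nor in memory nup42-delta at 20 min (17.5% of features). POM33 was then at 0.84 and NUP100 at -0.92. Memory minus naive within a strain removes the shared reference. For the 32 pore genes other than NUP42 its SD was 0.32 at both 10 and 20 min in BY4741, and 0.08 and 0.10 in nup42-delta. Over all features the SD was 0.60 and 0.75 in BY4741 and 0.43 and 0.41 in nup42-delta. POM33 differed by 0.55 and 0.95 between memory and naive BY4741 at 10 and 20 min and by -0.17 and 0.01 in nup42-delta.

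At 10 min in BY4741 the basket filament gene MLP1 had the lowest difference, -0.71, and MLP2 was at -0.57, with 0.03 and -0.01 in nup42-delta. At 20 min MLP1 and MLP2 were at -0.11 and 0.10 in BY4741 and at -0.13 and -0.15 in nup42-delta. After MLP1 and MLP2 the lowest in BY4741 at 10 min were NUP188, NUP157, NUP170, NUP192 and NUP120, between -0.61 and -0.47. They were between 0.01 and 0.11 in nup42-delta. At 20 min they were between -0.43 and -0.20 in BY4741 and between -0.08 and 0.14 in nup42-delta. In BY4741 at 10 min 9 of the 32 pore genes other than NUP42 were above 0. Among them POM34 (0.35), NUP49 (0.33) and SEC13 (0.27) were at -0.18, -0.07 and 0.04 in nup42-delta. No pore gene's difference reached 1 in BY4741 (7.82% of features at 10 min and 17.0% at 20 min did). In nup42-delta (4.57% and 3.24% of features) NUP42 itself reached 1.07 at 20 min, where both channels come from cells without the gene. The POM33 values in BY4741 have the sign of the difference called at 20 min on the first design. There pretreated ratios were against recovered cells, whereas memory BY4741 on the second design was against unstressed BY4741. The strain difference rests on 1 array per condition, was not tested, and cannot be told apart from array effects.

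**Figure D5:**
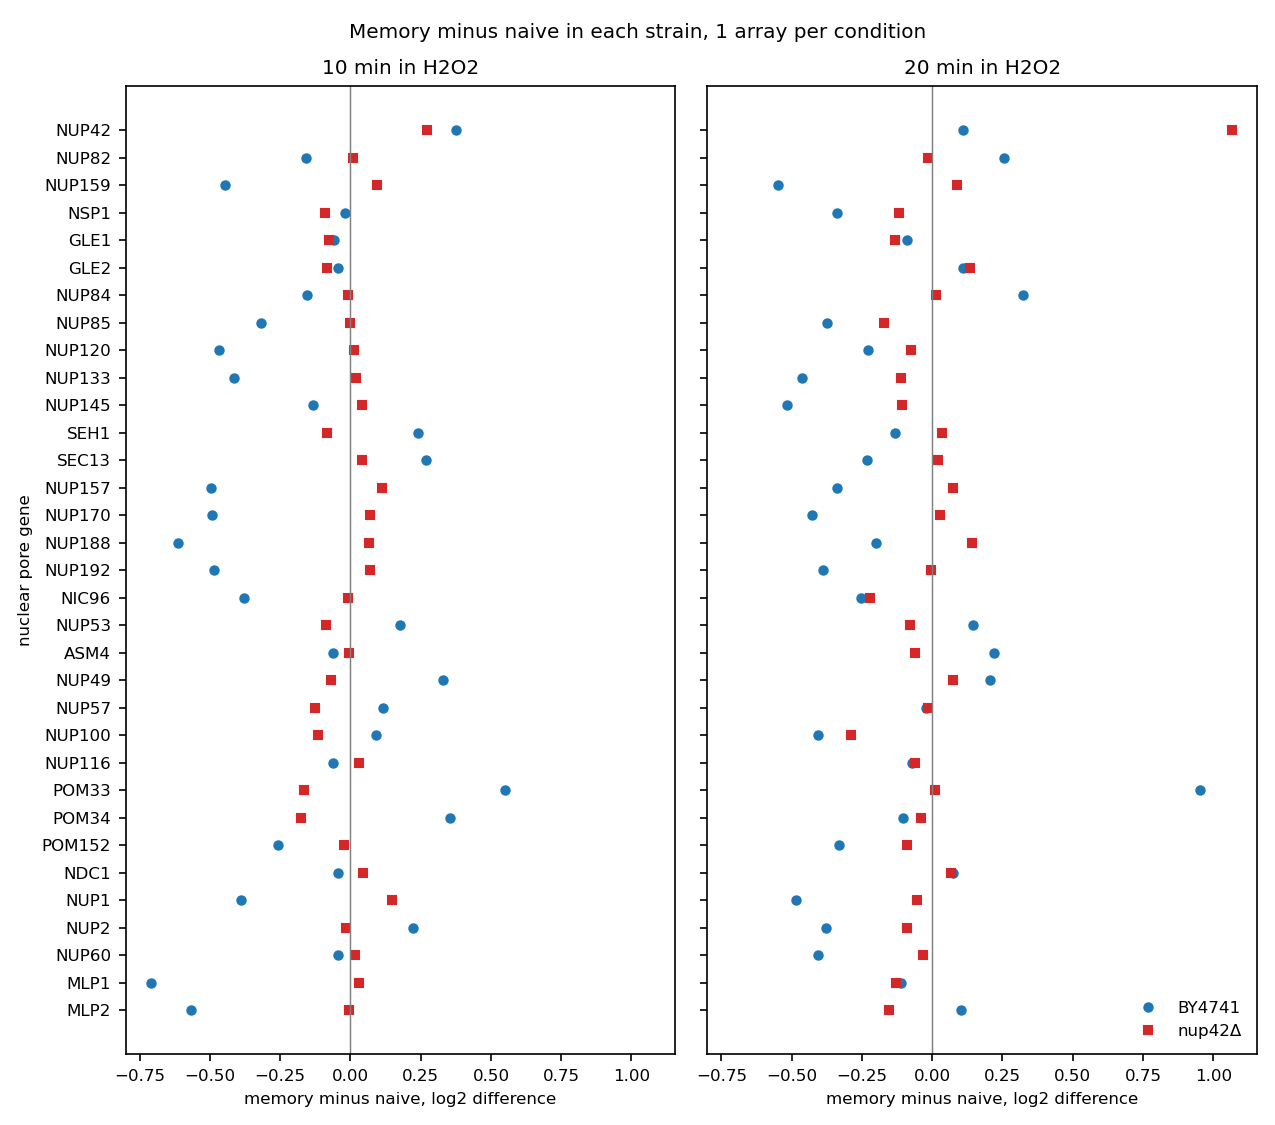
Memory minus naive log2 difference (horizontal axis) of the 33 pore genes (vertical axis) at 10 and 20 min in 0.4 mM H2O2, for BY4741 (circles) and nup42-delta (squares), 1 array per condition and so without error bars. The BY4741 points range from -0.71 (MLP1) to 0.95 (POM33), and the nup42-delta points other than NUP42 from -0.29 (NUP100) to 0.15 (NUP1).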

How the data were processed

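RNA of yeast cultures was hybridised with a reference culture on two-colour spotted arrays, each in its own Oyster dye, per the labels. The authors deposited 1 ratio per feature and array; the base and direction (log2, channel 2 over channel 1) were inferred, the direction from NUP42 in the deletion strain. The deposited log2 values were used as given, with background correction and normalization not stated in the labels. All 32 arrays of the first design were fitted gene by gene with group means in limma 3.58.1 (R 4.3.3), 2-sided, with Benjamini-Hochberg adjustment over all features tested in each of 18 comparisons. Arrays of the second design, 1 per condition, were not tested, and a value at or past 1 was counted. The number of arrays limits the precision.

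Named were NUP42 on every array, up to 6 called pore genes per direction and comparison, the 4 paralog pairs and, for each list, up to 3 genes at either end; other genes with values were chosen after these were seen. The members and lists were chosen with earlier results of these data known. Symbols and lengths came from RefSeq's R64 table. The fit was tested on simulated data for naive H2O2 at 20 min. There 200 of 5387 genes were changed, with noise independent between arrays, whereas 54.6% of features were called in the data. The recovery in the data can therefore differ. In the simulation the fit recovered 26.5% of genes changed by 0.5 (log2), 87.9% by 1 and 98.5% by 2. A gene that was not called may thus still have changed. Replicate numbers were not used to pair the arrays, as with 3 pairs every same-number correlation had to be over 0.1. These were 0.03, -0.03 and 0.379 for naive and pretreated arrays at 10 min and 0.185, 0.034 and 0.558 at 20 min. For recovered and mock arrays they were 0.508, 0.12 and 0.096, so some same-number arrays did correlate. Arrays that share an array code number had a consensus correlation of 0.526, which the main fit does not model and the random-block alternative does. The comparisons with 2 pairs, too few for that rule, gave 0.172 and 0.169 at 30 min, 0.039 and 0.035 at 40 min, and 0.18 and 0.188 for NaCl and H2O2. The correlations were of deviations from the group mean, which mirror each other in a group of 2 arrays. The 2 values of such a comparison are therefore not separate evidence. The alternatives were median centring, equalised array spread, only the arrays compared, array code number as a random block, array code series as a term, a replicate block, only genes valued on all arrays, and leaving out each array.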

Additional observations from a re-analysis of the deposited data

Results flagged for a closer look

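The following contrasts between pretreated and naive cells stood out among the pore genes. POM33 at 20 min was 0.737 higher on the log2 scale in pretreated cells (limma adjusted p = 0.0212, higher on 3 of 3 pretreated arrays than on every naive array). At 40 min POM34 differed by -0.735 (limma adjusted p = 0.0152) and NUP82 by -0.65 (limma adjusted p = 0.0234), with both pretreated arrays below both naive arrays for each gene; NUP82 was above 0 on both naive arrays and below it on both pretreated ones. At 30 min NUP49 differed by 0.59, above 0 on both pretreated and below it on both naive arrays, and the difference did not pass the test (limma adjusted p = 0.0684). The 3 calls were lost with the spread of every array made equal (0.45, -0.44 and -0.40 for POM33, POM34 and NUP82). They were also lost with only the arrays of the groups compared. In both settings 0 of 5298 features were called at 20 min and 0 of 4769 at 40 min, so these losses were not particular to the pore genes. Each call was also lost on leaving out single arrays, 3 of 6 for POM33, 3 of 4 for POM34 and 2 of 4 for NUP82.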

How the results depend on the processing

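No direction of a named value past the threshold turned under any alternative run, and the counts of pore genes called moved as follows. With each array's spread equalised the counts at 20, 30 and 40 min of naive H2O2 were 11, 8 and 6. Of all features 37.9%, 29.5% and 31.2% were then called. In pretreated cells at those times they were 10, 7 and 9 (36.3%, 30.8% and 33.3% of features). The pretreated minus naive difference gave 0 at 20 and at 40 min (0.0% of features at both). Counts were 4 for NaCl at 30 min (34.3% of features) and 3 for NaCl minus H2O2 at 30 min (18.9%). They were 5 recovered, 7 after mock and 1 between these (22.5%, 17.6% and 0.498%). The setting enlarges the values of arrays with a small spread and shrinks those of arrays with a large spread. With only the arrays of the groups compared, fewer samples were left to estimate the spread. The counts were then 4 and 11 for naive 10 and 20 min (1239 of 5419 and 1987 of 5387 features called). For pretreated 10, 20 and 40 min they were 8, 11 and 10 (1209 of 5345, 2237 of 5449 and 2548 of 5013 features). The differences at 20 and 40 min gave 0 (0 of 5298 and 0 of 4769 features). NaCl at 45 min gave 2 (1686 of 4932 features). Only genes valued on all arrays, 20 of the pore genes and 2407 of all features, gave 11 at naive 20 min (1335 features called). They gave 9 and 11 at pretreated 10 and 20 min (978 and 1554 features) and 6 at NaCl 30 min (1404 features). For the difference at 30 min the count was 1 (342 features). Median centring, the array code number as a random block and the array code series as a term also gave 1 there. They called 473, 528 and 678 of 4952 features. The series term gave 2 for the difference at 20 min, where 516 of 5298 features were called. A replicate block gave 2 for the difference at 30 min (688 of 4952 features called) against 0 without it. It moved no other count by over 1.5 times. Arrays of different number could correlate more (0.214 at 10 min) than those of the same number. Leaving out 1 array gave 11 to 14, 12 to 17, 12 to 16 and 13 to 16 at 10, 20, 30 and 40 min in pretreated cells, 0 to 1, 0 to 2, 0 to 1 and 0 to 2 for the differences from naive cells, and 0 after recovery or mock; for naive cells it gave 4 to 5, 11 to 19, 11 to 12 and 12, for NaCl 5 to 9 at 30 min and 2 at 45 min, and for NaCl minus H2O2 4 to 7. On the second design 19 pore values were at or past 1 over the 11 arrays, 64 at a threshold of 0.58 and 7 with spread equalised. The 19 and 64 include NUP42 itself, at -5.36, -4.75, 1.10 and 1.23 on nup42-delta arrays. From 3.10% (unstressed nup42-delta) to 36.6% (BY4741 NaCl) of features were at or past 1 on an array. For memory minus naive these counts were 1, 4 and 0, and the 1 is NUP42 in nup42-delta at 20 min (1.07). There 3.24% of features (nup42-delta at 20 min) to 17.0% (BY4741 at 20 min) were at or past 1. The counts with 1 array left out stand without the share of all features called in the same run. They do not show whether pore genes lost calls more often than other features. Where the setting's own construction does not show it, the cause was not tested.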
